A study of Mus musculus with 5 samples.

Results

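Genes of support cells and of odorant-metabolizing enzymes were followed in pools of sorted mouse olfactory sensory neurons (OSNs), as a readout of RNA that the receptor-expressing neurons are not known for. The set was a named list of 10 genes (Cyp2g1, Cyp1a2, Cyp2a5, Cyp2f2, Ugt2a1, Ermn, Sec14l3, Aldh1a7, Krt18 and Krt5) out of 55411 mouse genes in the count tables, each found by its Ensembl gene identifier. In total, 5 libraries were analysed: 3 control pools, numbered 1, 2 and 3, and 2 acetophenone-exposed pools, numbered 1 and 3; an exposed pool numbered 2 was not analysed here. All pools came from 7 week-old male mice homozygous for the Olfr151tm26Mom allele, which places IRES-tau-GFP behind the odorant receptor gene Olfr151 (also called M71), so that neurons choosing this receptor are green. Exposed mice received 5% acetophenone, a ligand of Olfr151, in DMSO for 5 h, and control mice received DMSO alone for the same time. Each pool joined cells of 4 mice from the main olfactory epithelium (MOE), sorted as GFP-positive, Hoechst-positive and DRAQ7-negative, that is green, nucleated and alive. The labels give 200 sorted cells per pool in one field and 400 in another. The methods of the paper give 200 per pool for this mouse line and 400 for another reporter line. Every pool carried the same reporter allele, the pools could not be split into single mice, and p-values therefore measure the spread between pools of 4 animals.

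The olfactory epithelium holds OSNs between sustentacular cells, the glia-like support cells whose bodies line the apical surface, and Bowman glands, which secrete mucus. Both are rich in cytochrome P450 monooxygenases, which oxidize inhaled chemicals (phase I), and in conjugating enzymes such as UDP-glucuronosyltransferases, which make the products water-soluble (phase II). Horizontal basal cells are the resting stem cells below, and express basal keratins.

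Library totals lay between 42780403 and 49527380 counts, and 3 counts corresponded to between 0.0606 and 0.0701 CPM (counts scaled by library size), taken as the floor of detection, for counting error only. The labelled cell type was apparent in every pool: all 8 mature OSN markers were expressed, and their summed level lay between 57207 and 77700 TPM, Omp alone between 18224 and 27094 TPM. TPM is the count per exon base, scaled to the same sum in every library, and can be compared between genes. Some libraries stood apart in RNA of other cells. Hemoglobin Hbb-bs reached 9667 counts in control pool 1 and 3372 in control pool 2, against 155 to 428 in the other three. Collagen Col1a1 reached 2476 counts in control pool 3, against 23 to 124 elsewhere. Il25, made by tuft-like microvillar cells, was counted only in control pool 3 (488) and exposed pool 1 (1023), and Foxi1, an ionocyte factor, in control pool 2 (842) and exposed pool 1 (58). ERCC spike-in RNAs, added in equal volume, took 0.631% and 0.542% of the counts in control and exposed pools 1, 0.249% in control pool 2, and 0.332% and 0.306% in control and exposed pools 3.

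RNA of 9 of the 10 genes was present above 3 counts in at least 1 pool. Summed over the 10 genes, it amounted to 472, 512 and 201 TPM across the control pools (1 to 3), and to 484 and 199 TPM in the exposed (1 and 3). This was 1.88%, 2.02% and 0.742% of the Omp level in the control pools and 2.58% and 1.09% in the exposed pools. Omp itself was lower in the exposed pools (18490 ± 377 TPM, SD, n = 2) than in control (25831 ± 1107 TPM, SD, n = 3). This raises the percentages of the exposed pools. By sum and by percentage the pools of both conditions overlapped, and in each condition the pool numbered 3 held the least. The conditions' means were 395 ± 169 TPM (SD, n = 3) in control and 341 ± 202 TPM (SD, n = 2) in exposed pools. In such bulk samples, fewer support cells and less RNA per support cell cannot be told apart.

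**Figure D1:**
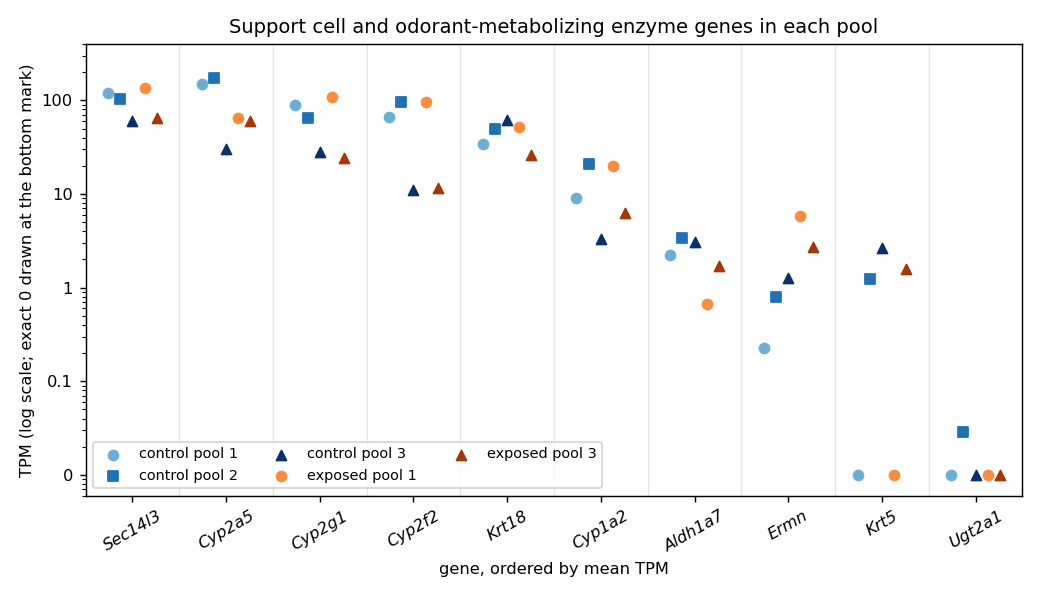
Level of each of the 10 genes in TPM (log axis) in the 3 control pools (blue) and the 2 acetophenone-exposed pools (orange), each point 1 pool, genes ordered by mean TPM. Sec14l3, the highest, lies between 60.2 and 135 TPM, and Ugt2a1 is at 0 in 4 of 5 pools.

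Ordered by mean TPM over the 5 pools, Sec14l3 came first (96.6 ± 33.3, SD, n = 5), followed by Cyp2a5 (95.4 ± 61.8), Cyp2g1 (63.1 ± 37.3), Cyp2f2 (56.4 ± 42.9) and Krt18 (44.6 ± 14.3). Each of these neighbours overlapped in its range of values. A gap followed: Krt18 was higher than Cyp1a2 (11.9 ± 8.11) in all 5 pools and without overlap of their ranges. Aldh1a7 (2.21 ± 1.08), Ermn (2.16 ± 2.26) and Krt5 (1.09 ± 1.12) were lower again, with ranges that overlapped in turn, and Ugt2a1 was last.

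Among the monooxygenases, Cyp2g1 is an isoform found almost only in olfactory mucosa. It is encoded on the forward strand of chromosome 7 (chr7:26808892-26821205, build GRCm38). It measured 89.9, 64.3 and 28.1 TPM across the control pools (1 to 3) against 109 and 24.2 in the exposed (1 and 3). Exposed pool 1 was thus the highest of all and exposed pool 3 the lowest, so the control values lay inside the exposed ones. The fitted difference was 0.31 on the log2 scale (SE 0.74, adjusted p = 0.861, quasi-likelihood test of edgeR, adjusted by Benjamini-Hochberg over all genes).

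Cyp2a5 is a coumarin hydroxylase abundant in nasal mucosa and liver, and lies beside Cyp2g1 (chr7:26835305-26843548, forward strand). It measured 148, 173 and 30.2 TPM across the control pools (1 to 3) against 65.2 and 59.9 in the exposed (1 and 3). Control pools 1 and 2 were the highest and control pool 3 the lowest, with both exposed pools between them. The fitted log2 difference was -0.74 (SE 0.68, adjusted p = 0.612). It depended on control pool 3: without that library it became -1.17 and passed the test (adjusted p = 0.0562), the only alternative of those run in which any of the genes did. The same-numbered pools went in opposite directions: in CPM scaled by TMM (trimmed mean of M-values), exposed pool 1 was at 0.476 times control pool 1 and exposed pool 3 at 2.18 times control pool 3.

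The counting of Cyp2a5 depends on its near copy Cyp2a4. The coding sequences of both have 1485 bases, of which 1462 are identical. Of all windows of 50 bases (the read length) in Cyp2a5 transcripts, 28.1% also occur in Cyp2a4. Over all other genes, of which 2 share windows with Cyp2a5, the share was 37.0%. Since only uniquely placed reads were counted, reads from windows that the pair shares are absent from both counts. The coding bases 207 to 256 of each, from GENCODE transcripts, show a stretch in which reads can be assigned, with capitals at the 3 mismatches.
Cyp2a5: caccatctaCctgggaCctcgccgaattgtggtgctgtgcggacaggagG
Cyp2a4: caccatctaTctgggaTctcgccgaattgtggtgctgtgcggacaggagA
Cyp2a4 itself had 0 counts in the 3 control pools and 2 in each exposed pool, against 835 to 4889 for Cyp2a5, so the assignable reads of the pair were those of Cyp2a5.

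Cyp2f2, which oxidizes naphthalene in airway secretory cells, had the widest spread of the 6 genes with enough counts for the test, with the highest pool 8.68 times the lowest in TPM. It lies on the same chromosome (chr7:27119909-27133660, forward strand), and 13.5% of its exon bases overlap the gene Gm15883, where reads stay unassigned. It measured 66.8, 96.1 and 11.1 TPM across the control pools (1 to 3) against 96.5 and 11.7 in the exposed (1 and 3). Both pools 3 were far below all others, and the conditions overlapped. The fitted log2 difference was 0.11 (SE 1.07, adjusted p = 0.971).

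Cyp1a2, a monooxygenase induced through the aryl hydrocarbon receptor, was the lowest of the 4 (chr9:57676937-57683703, reverse strand). It measured 9.08, 21.1 and 3.32 TPM across the control pools (1 to 3) against 19.9 and 6.26 in the exposed (1 and 3). In TPM, control pool 2 was the highest. Each exposed pool exceeded its same-numbered control pool, by 2.38 and 2.08 times in CPM scaled by TMM. The fitted log2 difference was 0.44 (SE 0.84, adjusted p = 0.816).

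Aldh1a7, an aldehyde dehydrogenase related to the retinal-oxidizing Aldh1a1, was rare (chr19:20692953-20727562, reverse strand). It had 62, 95 and 84 counts across the control pools (1 to 3) against 20 and 47 in the exposed (1 and 3). Both exposed pools lay below every control pool. Its counts did not exceed the threshold of 142 set on the whole table, and with edgeR's filterByExpr filter, which keeps 15544 genes, its log2 difference was -1.10 (SE 1.06, adjusted p = 0.752). With that filter, 16.4% of all genes had both exposed pools below all control pools.

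Ugt2a1, an olfactory UDP-glucuronosyltransferase, had 1 count in control pool 2 and 0 in the other pools. The files hold almost no place to count it. The locus (chr5:87459490-87490871, reverse strand) has 2570 exon bases, of which 2540 lie in exons of Ugt2a2 or Gm43638 as well, and reads over exons of several genes were not assigned. The remaining 30 bases are shorter than a read of 50 bases, so its count says nothing about its level. Ugt2a2 shares the 3′ coding exons, with 872 of 1587 coding bases identical in sequence up to the stop codon. Coding bases 696 to 735 of both show where they join, in small letters the last bases before and in capitals the first bases of the common part.
Ugt2a1: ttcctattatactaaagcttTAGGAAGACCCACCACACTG
Ugt2a2: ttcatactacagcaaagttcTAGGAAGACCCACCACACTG
Ugt2a2, with 140 exon bases of its own, had 170, 132 and 277 counts across the control pools (1 to 3) against 242 and 192 in the exposed (1 and 3). Its values in the conditions overlapped (log2 difference 0.29, SE 0.56, adjusted p = 0.819).

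Sec14l3 encodes a lipid-binding protein of the SEC14 family and marks sustentacular cells (chr11:4064841-4077736, forward strand). It had the highest mean TPM, and its highest pool was at 2.24 times its lowest in TPM. It measured 121, 102 and 60.2 TPM across the control pools (1 to 3) against 135 and 64.9 in the exposed (1 and 3). Pools 3 were the lowest in both conditions, and exposed pools exceeded their same-numbered control pools by 1.21 and 1.19 times in CPM scaled by TMM. The fitted log2 difference was 0.25 (SE 0.43, adjusted p = 0.793).

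The genes with the profile nearest to that of Sec14l3, by the root mean square difference of centred log2(CPM + 1) over the 5 libraries, were Zfp12 (0.0859), Tgfbr3 (0.112) and Camkk1 (0.121). Of 10036 genes tested, Cyp2g1 came at rank 569 in this likeness, Cyp1a2 at 2914, Krt18 at 4438, Cyp2a5 at 6198 and Cyp2f2 at 8527. By this measure many other genes lay nearer to Sec14l3 than any P450 gene did. The measure counts the size of the differences between pools as well as their order. The highest pool was at 8.68 times the lowest in TPM for Cyp2f2 and at 2.24 times for Sec14l3. A low rank therefore does not show another order of pools.

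Krt18, a keratin of simple epithelia that pairs with Krt8, had another order of pools than the enzymes (chr15:102028180-102032027, forward strand). It measured 34.3, 49.6 and 61.3 TPM across the control pools (1 to 3) against 51.9 and 25.9 in the exposed (1 and 3). Control pool 3 was the highest and exposed pool 3 the lowest. The fitted log2 difference was -0.13 (SE 0.43, adjusted p = 0.912). Krt8 followed the same order among control pools, with 141, 357 and 475 counts, and had 277 and 154 counts in exposed pools 1 and 3.

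Krt5, the keratin of horizontal basal cells (chr15:101707070-101712898, reverse strand), was counted in 3 pools only. It had 0, 37 and 77 counts across the control pools (1 to 3) against 0 and 46 in the exposed (1 and 3). The 2 pools numbered 1 had none, which allows up to 0.0689 and 0.0687 CPM. Its log2 difference with filterByExpr was -0.53 (SE 2.62, adjusted p = 0.975).

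Ermn, an actin-binding protein named for its likeness to the ezrin, radixin and moesin family, showed the largest fitted difference of the 10 (chr2:58045113-58052864, reverse strand). It had 11, 39 and 61 counts across the control pools (1 to 3) against 307 and 130 in the exposed (1 and 3). Both exposed pools were above every control pool, as were 17.2% of the genes kept by filterByExpr. Its log2 difference was 2.71 (SE 0.99, unadjusted p = 0.0365), and it did not pass after adjustment over all genes (adjusted p = 0.321, edgeR's quasi-likelihood test), with 1.52% of the genes kept by this filter called. The size differed between the numbered pools, since exposed pool 1 was at 28.3 times control pool 1 and exposed pool 3 was at 2.36 times control pool 3 in CPM scaled by TMM. Of its exon bases, 6.52% overlap the gene Galnt5.

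**Figure D2:**
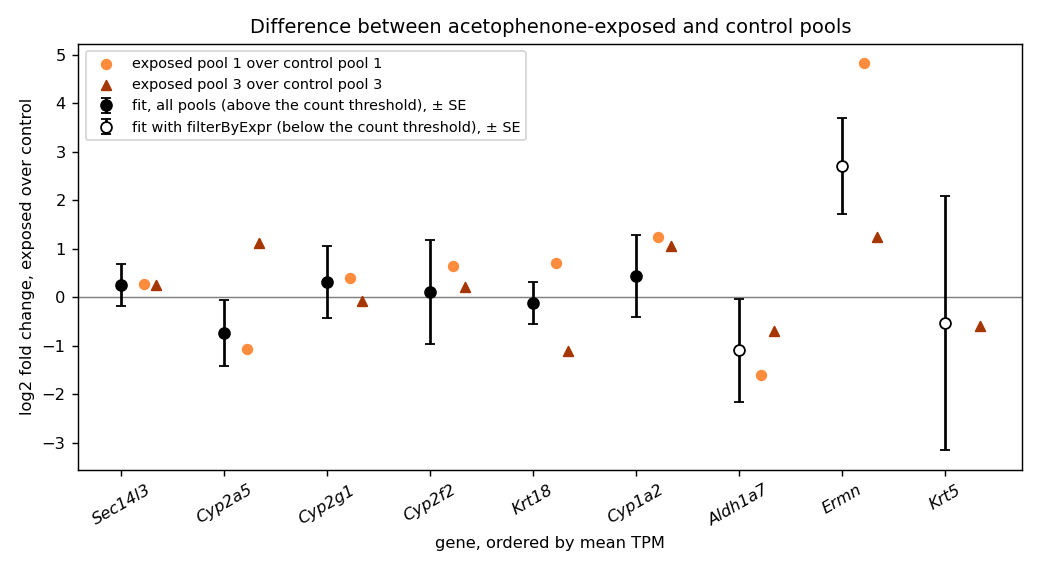
Log2 fold change of exposed over control pools for 9 genes, with bars for the standard error (SE); filled circles, genes above the count threshold; open circles, genes below it fitted with the filterByExpr filter. Orange circles and brown triangles give exposed pool 1 over control pool 1 and exposed pool 3 over control pool 3 in CPM scaled by TMM, which have opposite signs for Cyp2a5, Cyp2g1 and Krt18.

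Counted together, 6 of the 10 genes exceeded the count threshold in every library of at least 1 condition (Cyp2g1, Cyp1a2, Cyp2a5, Cyp2f2, Sec14l3 and Krt18). Calls required a log2 fold change beyond 0.5 in either direction and an adjusted p below 0.1. By this rule edgeR called 0 of the 6 and DESeq2 called 0 of the 6. In edgeR's fit across all genes, 0 had an unadjusted p under 0.05 (the lowest was 0.32). Among all 10036 genes tested, 5.27% were called, 3.42% higher and 1.85% lower after exposure. At the rate of the whole table, fewer than 1 of 6 genes would be called. Of the 6 log2 differences, 4 were positive and 2 negative, with a median of 0.18 against -0.03 over all genes tested. None of the 6 had conditions that did not overlap, compared with 40% of the genes tested. All 6 had an SE (0.43 to 1.07) above the median SE of all genes (0.33), so a difference had to be larger than for most genes to pass.

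The pools differed by number as well. For 5 of the 6 genes (all but Krt18), both pools 3 lay below both pools 1, in CPM scaled by TMM, a pattern held by 13.7% of the genes tested. The count of 5 was the same with library totals (13.3% of all genes), DESeq2 size factors (13.5%) and TPM (8.82%). With ERCC scaling it held for 2 of the 6, Cyp2g1 and Cyp2f2, and for 0.548% of all genes. In CPM scaled by TMM, control pool 1 exceeded control pool 3 by 3.45 times for Cyp2g1, 2.95 for Cyp1a2, 5.29 for Cyp2a5, 6.47 for Cyp2f2 and 2.17 for Sec14l3. Among the exposed pools, the same ratios were 4.77, 3.38, 1.16, 8.78 and 2.21. Only Cyp2a5 differed little between exposed pools 1 and 3. No test was made of this split, which was chosen after the values were seen, and the samples' labels do not say that a pool number marks a day or a preparation. According to the labels, 4 mice of each condition were processed on each of 3 consecutive days. The part of the sort, the day or the RNA input in these values was not tested.

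In CPM scaled by TMM, the summed level of the 10 genes was 325, 304 and 122 across the control pools (1 to 3) against 362 and 142 in the exposed (1 and 3). Control pool 1 was at 2.65 times control pool 3, and exposed pool 1 at 2.56 times exposed pool 3. Between same-numbered pools, exposed over control was 1.12 and 1.16. Scaled by ERCC counts the order changed: the sums became 199, 473 and 147 in control pools and 255 and 176 in exposed pools, with control pool 2 the highest, and the ratios of pool 1 to pool 3 shrank to 1.36 and 1.45. The 4 P450 genes alone held 203, 202 and 43.8 CPM in control and 203 and 67.3 CPM in exposed pools.

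**Figure D3:**
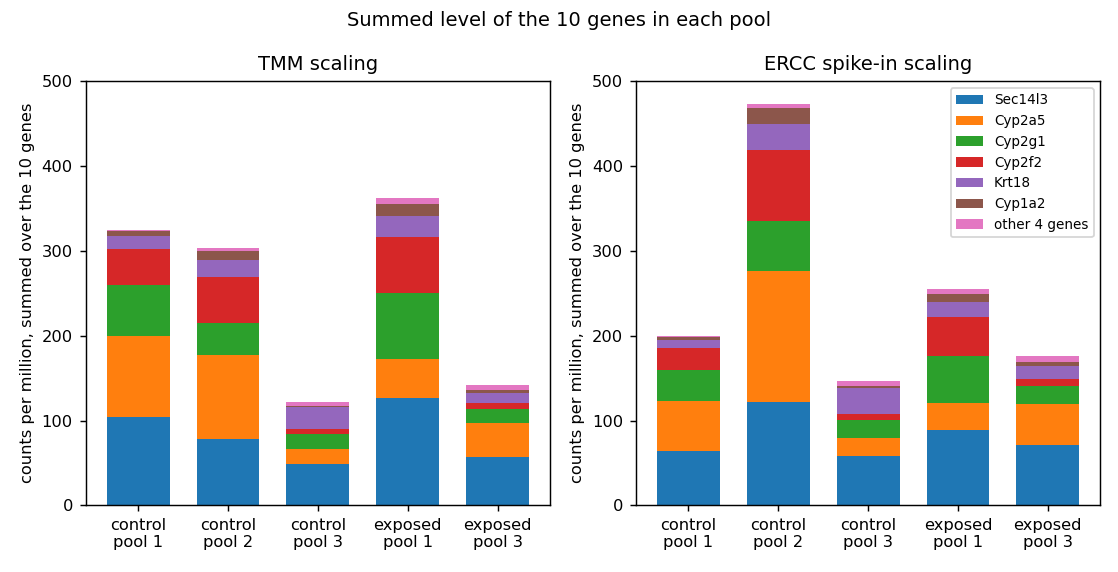
Summed level of the 10 genes in each pool in CPM, stacked by gene, scaled by TMM (left) and by ERCC spike-in counts (right). With TMM the pools numbered 3 have 122 and 142 CPM and the others 304 to 362 CPM; with ERCC counts control pool 2 stands highest at 473.

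Other markers were read beside the 10 genes. Cbr2, a carbonyl reductase of sustentacular cells, had 215, 146 and 79.6 TPM across the control pools (1 to 3) against 259 and 123 in the exposed (1 and 3), the same order of pools as Sec14l3. The Bowman gland list was led by Bpifa1, a secreted airway protein, which was even (139 to 233 TPM), and by Obp2a, an odorant-binding protein, which had 121, 224 and 34.3 TPM in control and 197 and 3.25 TPM in exposed pools, so that pools 3 were again the lowest. Summed over each list, other sustentacular markers lay at 109 to 229 TPM in control and 142 to 280 TPM in exposed pools, and Bowman gland markers at 312 to 745 and 193 to 522 TPM. Summed TPM was 5.27 to 13.8 in control and 8.77 to 12.7 in exposed pools for horizontal basal cells, 58.2 to 68.2 and 29.0 to 44.8 for globose basal cells, and 16.4 to 89.3 and 16.5 to 92.8 for microvillar cells. For olfactory ensheathing glia it was 2.55 to 5.87 and 4.65 to 4.86, for blood and immune cells, mostly hemoglobin, 138 to 1638 and 168 to 354, and for stroma and vessels 9.07 to 65.5 and 3.77 to 12.6. Of the immune genes of that list, 3 lay higher in both exposed pools than in any control pool. Ptprc, the leukocyte antigen CD45, had 0, 54 and 1 counts across the control pools (1 to 3) against 542 and 517 in the exposed (1 and 3), with an adjusted p of 0.191. Tyrobp, an adaptor of myeloid receptors, had 538, 123 and 67 counts in control and 1026 and 797 in exposed pools (log2 difference 1.98, adjusted p = 0.296). Cd52, of lymphocytes, had 21 to 280 counts in control and 650 and 306 in exposed pools. The 5 tested genes of the list included hemoglobin Hbb-bs, with a log2 difference of -3.86, and their median was 1.98. Of the 5, edgeR called 0, and 2 had an unadjusted p under 0.05. These were Ptprc (0.0242), fitted higher after exposure, and Hbb-bs (0.029), fitted lower. DESeq2 called 2, with Ptprc among them but neither Tyrobp nor Cd52. Ptprc was called without control pool 2 (adjusted p = 0.0279), with ERCC scaling (0.00551) and by DESeq2 (0.0281), and Tyrobp (0.0279) and Cd52 (0.0695) without control pool 1. The part of immune cells in the results was not tested. Among defining markers, Npy of ensheathing glia and Scgb1a1 and Muc5ac of respiratory epithelium did not exceed 3 counts in any pool. Over these 9 lists, without the 10 genes, 17 of 70 genes were tested, 3 had an unadjusted p under 0.05, and edgeR called 1 and DESeq2 3. Of all 10036 genes tested, 1922 had an unadjusted p under 0.05, and edgeR called 5.27% and DESeq2 14.9%. The counts of the lists were near these rates.

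The gene of these lists that edgeR called was Dynlrb2, a dynein light chain of ciliated cells. It made up most of the respiratory epithelium list (464 to 592 TPM in control and 224 to 225 in exposed pools). It fell from 579, 453 and 551 TPM in control pools to 208 and 209 TPM in exposed pools (log2 fold change -1.18, adjusted p = 0.0567), with no split by pool number. Reg3g of the same list had a log2 difference of 0.30 (adjusted p = 0.769, edgeR), and Scgb1a1 and Muc5ac were absent from every pool. Whether Dynlrb2 RNA came from respiratory epithelium was not tested. Over all genes tested, the median log2 difference was -0.03, with 1.85% called lower and 3.42% called higher. Mature OSN markers had a median of -0.42, with 3 of 8 called lower (Cnga2, Cnga4 and Rtp1). Immature OSN markers had one of 1.03, with 1 of 4 called higher (Gap43, 0.94, adjusted p = 0.089, edgeR). None of these 5 calls passed with ERCC scaling (adjusted p = 1.00), and with filterByExpr those of Dynlrb2 (0.116), Cnga4 (0.16) and Gap43 (0.164) were lost, as was that of Cnga4 with no filter (0.135). With 1 library left out, Dynlrb2 and Cnga2 lost their calls without either exposed pool (adjusted p = 0.108 to 0.301), Rtp1 without exposed pool 1 (0.123), Cnga4 in 4 of 5 fits, all but that without control pool 1 (0.117 to 0.376), and Gap43 in all 5 (0.107 to 0.505).

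**Figure D4:**
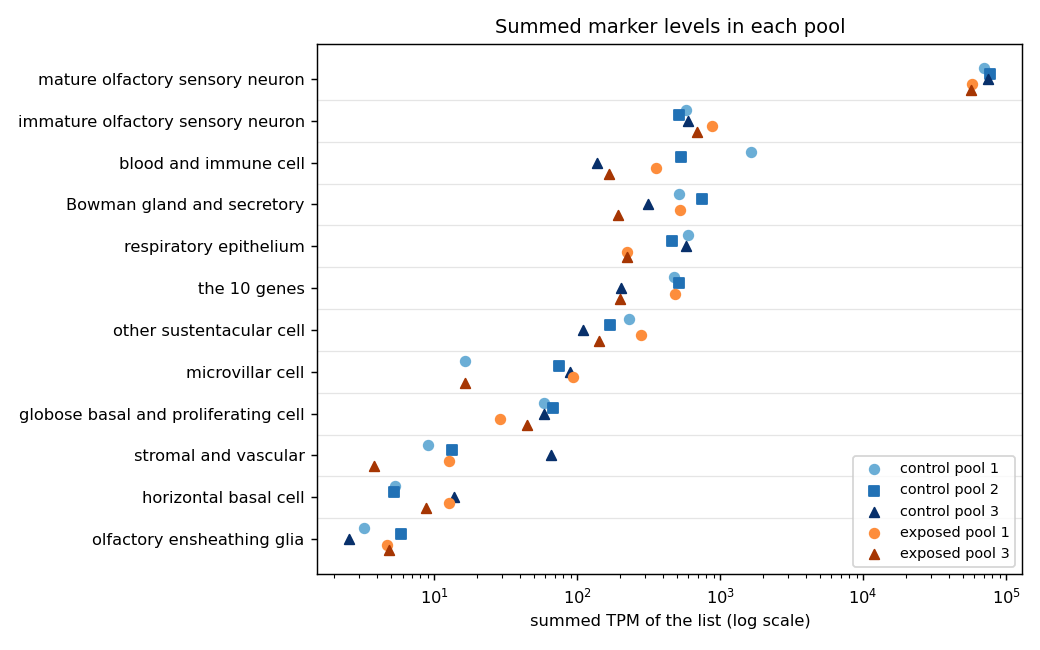
Summed TPM (log axis) of each marker list in the 5 pools, lists ordered by mean level. Mature OSN markers lie at 57207 to 77700 TPM, and the 10 genes at 199 to 512 TPM with both pools 3 (triangles) lowest.

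The same question was put to the other genes of odorant metabolism and export. Of 104 genes of phase I, phase II and phase III (efflux transport) found in the tables, 42 were tested. EdgeR called 3 lower and 0 higher (7.14%, near the 5.27% of all genes tested), and 8 had an unadjusted p under 0.05. DESeq2 called 7, 1 higher and 6 lower (16.7%, near its 14.9% of all genes tested). The median log2 difference was -0.09, against -0.03 over all genes tested. None of the 3 called genes was a member of the set above, and all 3 had a mean TPM above that of Sec14l3.

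Nqo1, a quinone reductase that marks dorsal OSNs, had 5513, 5127 and 5988 TPM across the control pools (1 to 3) against 2608 and 2990 in the exposed (1 and 3), and fell by 0.82 on the log2 scale (SE 0.13, adjusted p = 0.029). Sult1d1, a sulfotransferase, had 1987, 1915 and 1829 TPM in control and 1011 and 1224 TPM in exposed pools, and fell by 0.61 (SE 0.14, adjusted p = 0.072). Abcc1, an efflux pump for glutathione conjugates, had 131, 178 and 159 TPM in control and 38.3 and 54.4 TPM in exposed pools, and fell by 1.58 (SE 0.18, adjusted p = 0.00871). In each of the 3 the conditions did not overlap, as in 40% of the genes tested, and pools of a condition were close. The call itself favours both traits, so they add no support to it. With 1 library left out, Abcc1 stayed called in all 5 fits, Nqo1 lost its call without either exposed pool (adjusted p = 0.244 and 0.132), and Sult1d1 in 4 of 5 fits, all but that without control pool 3 (0.104 to 0.408). Sult1d1 also lost it with filterByExpr (0.145) and with no filter (0.106). With ERCC scaling, edgeR called 0 of the 42 and 1 had an unadjusted p under 0.05.

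**Figure D5:**
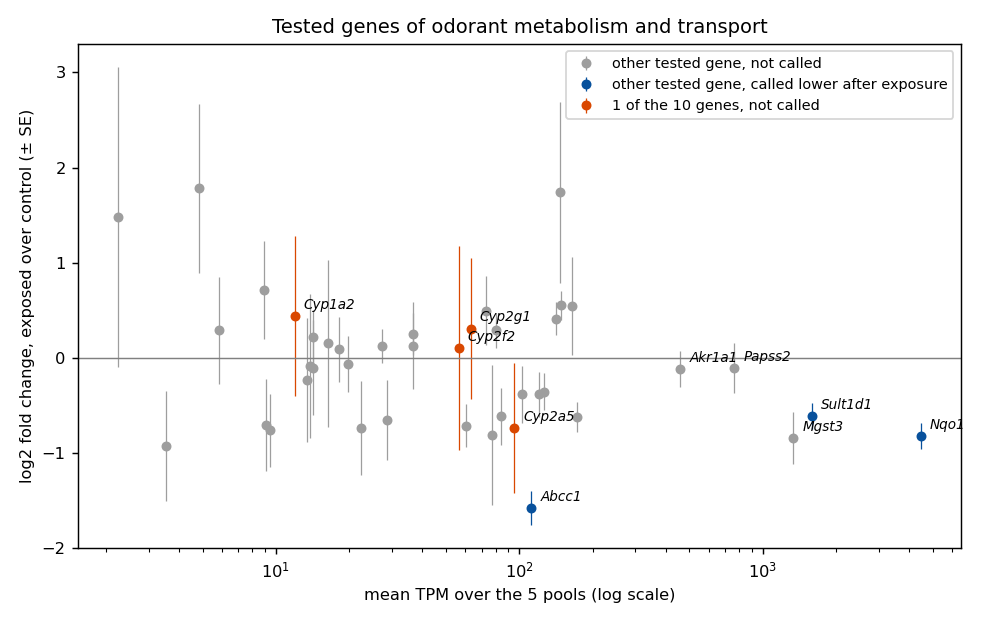
Log2 fold change of exposed over control pools, with SE bars, against mean TPM (log axis) for the 42 tested genes of odorant metabolism and transport. The 4 P450 genes of the set (orange) have long bars across or near 0, while Nqo1, Sult1d1 and Abcc1 (blue) were called lower.

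By step, 1 of 23 tested phase I genes was called, 1 of 16 of phase II and 1 of 3 of phase III, all lower. Other abundant enzymes did not pass the test. Akr1a1, an aldehyde reductase, had a log2 difference of -0.12 (adjusted p = 0.78), Mgst3, a microsomal glutathione transferase, one of -0.84 (adjusted p = 0.176), and Abcc4, another efflux pump, one of -0.39 (adjusted p = 0.429). In the aryl hydrocarbon receptor pathway, which induces Cyp1a2, 1 of 6 tested genes was called, again Nqo1.

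In a list of SEC14-like and ezrin, radixin and moesin family genes, 3 of 7 tested genes were called, against 5.27% of all genes tested. Sec14l5 fell from 284, 375 and 315 TPM in control to 126 and 171 TPM in exposed pools (log2 fold change -0.97, adjusted p = 0.0346). Sec14l4 fell from 48.3, 70.5 and 44.9 TPM to 14.8 and 6.79 TPM (-2.15, adjusted p = 0.0555). Sec14l1 rose from 53.1, 75.4 and 76.7 TPM to 99.3 and 134 TPM (0.94, adjusted p = 0.0562). In these 3 relatives, named because they were called, the conditions did not overlap, as in 40% of the genes tested. Those of Sec14l3 overlapped. With ERCC scaling none of the 3 passed (adjusted p = 0.143 for Sec14l4 and 1.00 for the others), and with filterByExpr Sec14l1 (0.135) and Sec14l4 (0.14) did not. Without control pool 2 none of the 3 passed either (adjusted p = 0.11 to 0.165), without exposed pool 1 only Sec14l4 did (0.0835), and without exposed pool 3 only Sec14l5 did (0.093).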

How the data were processed

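Single-end reads of 50 bases from 5 libraries (amplified cDNA, 12 PCR cycles) were aligned by the authors with STAR 2.7.0a to GRCm38, and the deposited values are raw read counts per gene from featureCounts 1.6.3 (unstranded, uniquely placed reads, reads on several genes left out, Ensembl annotation with ERCC RNAs and the reporter). Exon lengths per gene came with the deposited tables. From the counts, TPM (counts per exon length, scaled to the same sum in each library) and CPM were computed here, CPM with TMM factors. The density of log2(count + 1) over all counts above 0 has a local minimum, and the 10036 genes that exceeded it (142 counts or more) throughout either condition were tested with edgeR 4.0.16 (robust quasi-likelihood, condition only), p-values adjusted by Benjamini-Hochberg over all of them. SE is the absolute log2 fold change divided by the root of F. On simulated data with the same 10036 genes, this test called 70% of genes changed 4-fold and 19% of those changed 2-fold. The changed genes were drawn at random from all genes tested. The 6 tested genes of the set, whose SEs were above the median of all genes, were not simulated apart. R 4.3.3, DESeq2 1.42.0 and Python served for the rest. Symbols came from a GENCODE table, which matched 55144 genes; sequences and shared windows came from GENCODE M21 transcripts. Intervals and floors cover counting error only, and reads carried no molecular identifiers.

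The 10 genes, the marker, enzyme and family lists, and the rules for naming genes were chosen with earlier results of these data known. Named were all 10 genes, in each other list the called genes and the 2 of highest mean TPM, the 3 genes most like the most abundant of the 10, and near copies. Foxi1, Ptprc, Cd52 and the markers absent from every pool were named after their values were seen, and a few genes that the rule would name are not reported here. Alternatives were another test, scaling, filter and threshold, a replicate block, and leaving out each library.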

Additional observations from a re-analysis of the deposited data

How the results depend on the processing

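Over all genes, 529 were called, and 1493 with DESeq2 (48.6% of them higher, against 64.8%), 141 with ERCC scaling, 236 with filterByExpr, 281 at an adjusted p under 0.05, and 112 to 788 when 1 library was left out. Of the 10 genes 0 were called in each alternative other than leaving out control pool 3, where Cyp2a5 was (range 0 to 1). Of the odorant metabolism genes, 3 were called, 7 with DESeq2, 0 with ERCC scaling and 1 to 4 with 1 library left out. With ERCC scaling, the log2 difference turned to -0.15 for Cyp1a2, -0.49 for Cyp2f2, -0.041 for Cyp2g1 and -0.026 for Sec14l3, none called, and the median over all genes moved to -0.23. Leaving out 1 library gave -0.70 to 1.21 for Cyp1a2, -1.17 to -0.41 for Cyp2a5, -2.20 to 0.92 for Cyp2f2, -1.23 to 1.01 for Cyp2g1, -0.78 to 0.29 for Krt18 and -0.44 to 0.69 for Sec14l3, so that the sign depended on a single library for each but Cyp2a5. Leaving out exposed pool 1 made all 6 negative. The log2 ratio of the summed levels, exposed over control, was 0.01, and lay between -0.34 and 0.03 under other scalings, TPM or without Sec14l3, and between -0.82 and 0.53 with 1 library left out, within the spread between pools (SD 0.85). The count of genes with both pools 3 below both pools 1 was 5, and 2 with ERCC scaling. The causes were not tested.

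With the replicate number as a block, 12 genes were called over all, 29 with pools 1 and 3 only and 0 with filterByExpr (1316 at an unadjusted p under 0.05); the latter 2 fits were chosen after seeing the data, as were the scalings of the pool-number count. In each of the 3 blocked fits 0 of the 10 genes and 0 metabolism genes were called, and the log2 difference of Cyp2a5 turned to 0.024, 0.032 and 0.048. Deviations from the condition means correlated at 0.06 between pools 1 and -0.08 between pools 3, across 10036 genes, which are not independent replicates. With 2 exposed pools, their deviations mirror each other, so a control pool correlates with both at the same size and opposite sign. Control pool 2 had -0.163 with exposed pool 1 and 0.163 with exposed pool 3. These values therefore cannot decide whether same-numbered pools belong together, and the labels do not say so. With the block over all 5 pools, none of the 11 genes of the other lists called without a block was called (adjusted p = 0.126 to 0.29).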

Other observations

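Genes of other cell types, read at the abundances of the 10 genes, varied by pool in their own ways. Icam1, an adhesion molecule of horizontal basal and vascular cells, had 265, 1 and 49 counts across the control pools (1 to 3) against 437 and 295 in the exposed (1 and 3), so that both exposed pools were above all controls without passing the test (log2 difference 1.85, adjusted p = 0.566). Cav1, a caveolar coat protein, had 372 counts in control pool 3 and 0 to 107 elsewhere. Hes6, a transcription factor of neuronal precursors, lay lower in both exposed pools (730 and 1018 counts) than in control pools (1387 to 1653 counts), not passing the test (adjusted p = 0.305), while the precursor factor Neurog1 had at most 48 counts. Pou2f3, the tuft cell factor, showed the same order (11.7 and 11.9 TPM against 16.4 to 22.2 TPM, adjusted p = 0.469). Fabp7, a fatty acid-binding protein of glia, had 19 to 61 counts.

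Blood and stromal genes also differed between libraries. Hba-a1, a hemoglobin chain, had 3032, 1303 and 106 counts across the control pools (1 to 3) against 94 and 66 in the exposed (1 and 3). Acta2, of smooth muscle, had 14, 181 and 377 counts in control and 7 in each exposed pool. The antimicrobial lectin Reg3g was even, at 285 to 551 counts. Among neuronal genes of the lists, Stoml3, a mechanosensory channel regulator of cilia, had 24786 to 29450 TPM and Stmn2, a microtubule regulator of growing neurites, 268 to 325 TPM, both overlapping between conditions.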
